A study of Mus musculus with 2 samples.

Results

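The genes described here make leukotrienes, prostaglandins and thromboxane from arachidonic acid, and were followed by name through every cell type of mouse blood neutrophil preparations. The 8 genes were Alox5, Alox5ap, Lta4h, Ltc4s, Ptgs1, Ptgs2, Tbxas1 and Ptges3, of 32285 genes in the feature list, and all 8 had UMIs (unique molecular identifiers, which count captured RNA molecules) in both libraries. The study compared circulating neutrophils of APP/PS1 mice, a transgenic model of Alzheimer's disease that deposits amyloid in the brain, with those of WT mice (C57BL/6J). Each genotype was 1 single-cell library of peripheral blood, pooled from 3 untreated female mice aged 7 months. Red cells were lysed and neutrophils were enriched with a negative-selection kit in both genotypes. The promoter that drives the transgenes is not given in the sources used here. With 1 library per genotype there was no replicate error and no test was made. Values are UMIs of a gene per 1e6 UMIs of its cell type (CPM), and their 95% intervals hold the error of counting alone and none of the variation among mice.

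Alox5 encodes 5-lipoxygenase, which oxidises arachidonic acid with the help of the membrane protein FLAP, the product of Alox5ap. The unstable product leukotriene A4 is hydrolysed by the enzyme of Lta4h to leukotriene B4, a strong attractant of neutrophils, or joined to glutathione by the enzyme of Ltc4s to give leukotriene C4, the first of the cysteinyl leukotrienes. Ptgs1 and Ptgs2 encode the cyclooxygenases COX-1 and COX-2, which turn the same fatty acid into prostaglandin H2. COX-1 is the main form of platelets, and COX-2 is induced in activated leukocytes. From prostaglandin H2, the enzyme of Tbxas1 makes thromboxane A2, and the product of Ptges3, also known as the Hsp90 cochaperone p23, has been described as a prostaglandin E synthase.

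The promoters of Ptgs2 and Lta4h are shown because the levels of these genes differed most sharply, and in opposite directions, among the neutrophils described below. They are RefSeq sequences of GRCm38.p6 that run from 250 bases before to 30 bases after the annotated start, and 7 of the 8 genes had such a sequence. Capitals mark matches to 6 short motifs that were searched on both strands. Ptgs2 lies on the plus strand at chr1:150100031-150108227 in mm10 and its promoter window at chr1:150099781-150100060. Lta4h lies on the plus strand at chr10:93453411-93484875 and its window at chr10:93453146-93453425.
Ptgs2: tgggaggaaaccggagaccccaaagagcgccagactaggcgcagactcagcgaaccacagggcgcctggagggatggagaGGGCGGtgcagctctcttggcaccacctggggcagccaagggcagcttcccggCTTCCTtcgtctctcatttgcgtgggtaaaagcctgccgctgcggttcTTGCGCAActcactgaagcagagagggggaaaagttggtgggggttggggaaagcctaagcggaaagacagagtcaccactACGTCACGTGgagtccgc
Lta4h: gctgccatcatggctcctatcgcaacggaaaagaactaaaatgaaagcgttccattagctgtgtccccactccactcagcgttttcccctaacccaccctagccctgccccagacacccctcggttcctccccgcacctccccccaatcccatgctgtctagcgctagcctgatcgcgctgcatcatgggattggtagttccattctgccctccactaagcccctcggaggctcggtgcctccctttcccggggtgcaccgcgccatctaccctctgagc
The Ptgs2 window held a match to all motifs searched but the TATA box TATAAA. From the 5′ end, these were a GC box (GGGCGG) at −170 from the start, a PU.1 motif (AGGAAG, on the other strand) at −117, a C/EBP motif (TTGCNNAA) at −69, a partial CRE (TGACGT, on the other strand) at +13 and an E-box (CACGTG) at +17, which shares its first bases with the partial CRE. Of 32851 promoters of this length, 34.7% held the GC box, 32.9% the PU.1 motif, 13.1% the TATA box, 10.4% the C/EBP motif, 7.26% the partial CRE and 6.79% the E-box. The Lta4h window held none of the 6, which says only that these letters were not found there.

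The WT library held 17123 barcodes and 92458623 UMIs and the APP/PS1 library 17645 barcodes and 84870864 UMIs. After the cell filters, 14564 and 15208 cells remained, and they were clustered without the 8 genes and named by markers, so that each name stands for cells that carry those markers. Neutrophils, marked by S100a8, S100a9, Csf3r and Cxcr2, made up 52.1% of kept WT cells (7595 cells) and 63.1% of kept APP/PS1 cells (9599 cells). The other named types were classical monocytes (2455 and 1760 cells), nonclassical monocytes (2839 and 1785), basophils (72 and 43), NK cells (425 and 765), T cells (427 and 541), B cells (304 and 307) and erythroid cells (263 and 143), and 184 and 265 cells stayed unnamed. The label of enriched neutrophils thus covered mixed blood leukocytes. Of the erythroid cells, 47.3% were among the highest 8% of doublet scores. The libraries shared 83 barcodes, 63 of them in kept cells, and without these every ratio between the libraries in neutrophils was the same to within 0.03 on the log2 scale.

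Alox5 was a transcript of neutrophils and basophils. Its level in neutrophils was 121 CPM in WT (95% Poisson interval 116 to 126) and reached 124 CPM in APP/PS1 (120 to 128). In basophils, which secrete leukotrienes, it was 130 and 170 CPM, and the intervals of the log2 ratio to neutrophils included 0 in both libraries; scaled by TMM (trimmed mean of M values), the ratios were −0.61 and −0.26. Nonclassical monocytes followed with 33.7 and 40.2 CPM and erythroid cells with 22.6 and 34.6 CPM. Classical monocytes held 12.4 and 12.1 CPM, near the 12.0 and 14.9 CPM of NK cells, the 14.7 and 10.0 CPM of T cells and the 13.9 and 7.65 CPM of B cells. Neighbours in the order of these last 4 types were within counting error of each other in each library, and types further apart were not compared. An Alox5 UMI was found in 27.8% of WT and 29.7% of APP/PS1 neutrophils, at median depths of 2551 and 2701 UMIs. B cells, which were deeper (5004 and 5875 UMIs), had one in 6.58% and 3.26%. After each cell was thinned to 1000 UMIs, these shares were 11.2% and 11.5% in neutrophils against 0.987% and 0.651% in B cells.

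Alox5ap was the most abundant of the 8 transcripts and the most widely spread among myeloid cells. Its level was 1513 CPM (WT) and 1599 CPM (APP/PS1) in neutrophils, 1712 and 2014 CPM in basophils, 1284 and 1180 CPM in classical monocytes and 728 and 698 CPM in nonclassical monocytes. Erythroid cells held 413 and 545 CPM, T cells 252 and 189 CPM, NK cells 180 and 221 CPM and B cells 173 and 113 CPM. A UMI was found in 96.9% and 97.3% of neutrophils, and still in 77.6% and 79.5% after thinning. In CPM, classical monocytes thus carried Alox5ap at 84.9% and 73.8% of the neutrophil level, but Alox5 at only 10.2% and 9.80% of it. The first depends on the scaling: the log2 ratio of Alox5ap was −0.24 and −0.44 in CPM but −1.11 and −1.25 under TMM. That of Alox5 was −4.17 and −4.16 under TMM. The excess of basophils over neutrophils, a log2 ratio of 0.18 (0.06 to 0.29) in WT and 0.33 (0.19 to 0.47) in APP/PS1, turned to −0.53 and −0.39 under TMM.

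**Figure D1:**
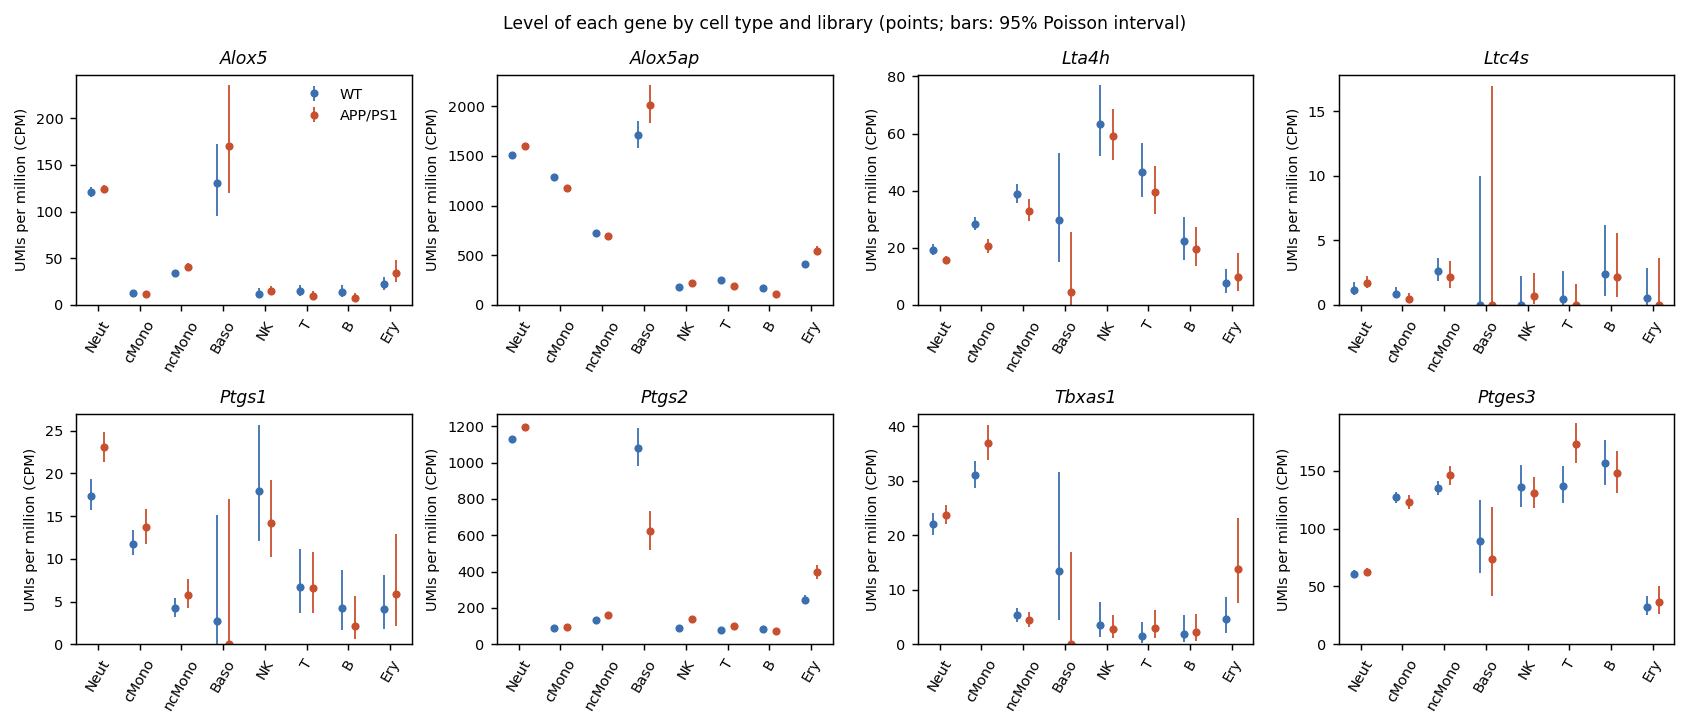
Level of each of the 8 genes (CPM, each panel with its own axis from 0) in neutrophils (Neut), classical (cMono) and nonclassical (ncMono) monocytes, basophils (Baso), NK, T and B cells and erythroid cells (Ery) of the WT (blue) and APP/PS1 (red) library; bars are 95% Poisson intervals. Alox5 and Ptgs2 stand high in neutrophils and basophils, Alox5ap also in monocytes, Lta4h in NK cells, and Ltc4s is near 0 throughout.

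Lta4h, the next enzyme towards leukotriene B4, had its highest level in NK cells when each type was summed as a whole, although a small cluster of neutrophils described below held more. NK cells held 63.5 CPM (WT) and 59.1 CPM (APP/PS1), T cells 46.6 and 39.7 CPM and nonclassical monocytes 38.9 and 33.0 CPM. Classical monocytes held 28.4 and 20.5 CPM, B cells 22.4 and 19.7 CPM, neutrophils 19.4 and 15.8 CPM and erythroid cells 7.70 and 9.89 CPM. In basophils it was 29.8 CPM from 11 UMIs in WT and 4.60 CPM from 1 UMI in APP/PS1. NK cells exceeded neutrophils by a log2 ratio of 1.71 (1.39 to 2.02) in WT and 1.91 (1.65 to 2.16) in APP/PS1, and T cells by 1.26 and 1.33. The median of all genes was itself higher in NK cells than in neutrophils, by 0.72 in WT and 0.67 in APP/PS1. Relative to that median, Lta4h was higher by 0.99 and 1.24 in NK cells, 0.57 and 0.66 in T cells and 0.16 and 0.29 in nonclassical monocytes, but lower in classical monocytes, by a log2 difference of −0.31 and −0.38.

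Ltc4s was the scarcest of the 8. Neutrophils gave 26 UMIs in WT (1.19 CPM) and 51 UMIs in APP/PS1 (1.73 CPM), in 0.316% and 0.479% of cells. Nonclassical monocytes held 2.65 and 2.19 CPM, B cells 2.42 and 2.19 CPM from 4 UMIs in each library, and classical monocytes 0.877 and 0.444 CPM. In basophils, 0 UMIs were found in either library, which allows up to 9.98 CPM (WT) and 17.0 CPM (APP/PS1). No type differed from the next in order beyond counting error. Further apart in order, the interval of nonclassical monocytes lay above that of classical monocytes in both libraries. It was 1.87 to 3.66 against 0.519 to 1.39 CPM in WT and 1.32 to 3.43 against 0.163 to 0.967 CPM in APP/PS1. It also lay above that of neutrophils in WT (0.780 to 1.75 CPM) but overlapped it in APP/PS1 (1.29 to 2.27 CPM).

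Of the cyclooxygenases, Ptgs2 was a major transcript of neutrophils, and Ptgs1 was low in every type. Ptgs2 stood at 1132 CPM in WT (1117 to 1146) and reached 1198 CPM in APP/PS1 (1186 to 1211) neutrophils. Basophils held 1082 CPM (WT) and 621 CPM (APP/PS1), erythroid cells 246 and 396 CPM, nonclassical monocytes 136 and 159 CPM, NK cells 91.7 and 140 CPM, classical monocytes 88.4 and 96.0 CPM, T cells 80.3 and 101 CPM and B cells 84.8 and 72.7 CPM. In CPM, neutrophils and basophils of WT were within counting error of each other, and APP/PS1 basophils were lower than neutrophils by a log2 ratio of −0.95 (−1.20 to −0.70). Under TMM, the ratio of basophils to neutrophils was −0.78 in WT and −1.67 in APP/PS1. The gene was unevenly spread over neutrophils. A UMI was found in 72.8% of WT and 71.7% of APP/PS1 neutrophils, fewer than had Alox5ap, yet single cells reached 56 and 54 UMIs against 28 and 29 for Alox5ap. Thinned to 1000 UMIs, the share was 52.8% and 52.9% in neutrophils, 41.7% and 37.2% in basophils and 4.93% and 3.91% in B cells.

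Ptgs1 stood at 17.4 CPM (WT) and 23.1 CPM (APP/PS1) in neutrophils, and at 18.0 and 14.2 CPM in NK cells. Classical monocytes held 11.8 and 13.7 CPM, T cells 6.65 and 6.55 CPM, nonclassical monocytes 4.23 and 5.77 CPM, B cells 4.24 and 2.19 CPM and erythroid cells 4.11 and 5.94 CPM. Basophils gave 1 UMI in WT and 0 in APP/PS1. In CPM, NK cells and neutrophils of WT did not differ beyond counting error. Under TMM, the log2 ratio of NK cells to neutrophils was −0.94 in WT and −1.63 in APP/PS1. The values of Ptgs1 beside platelet transcripts are given below.

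Tbxas1 was the only one of the 8 with its highest level in classical monocytes in both libraries, 31.1 CPM (WT) and 36.9 CPM (APP/PS1), against 22.0 and 23.7 CPM in neutrophils. The ratio was 0.50 (0.32 to 0.67) and 0.64 (0.47 to 0.81) on the log2 scale, but fell below the median of all genes in these cells (−0.36 and −0.12) and turned to −0.38 and −0.17 under TMM. Nonclassical monocytes had much less, 5.31 and 4.39 CPM, a log2 ratio to neutrophils of −2.05 and −2.43. Lymphocytes ranged from 1.43 to 3.60 CPM. Ptges3 was high in monocytes and lymphocytes alike, with 123 to 173 CPM in monocytes, NK cells, T cells and B cells, 89.3 and 73.6 CPM in basophils, 60.8 and 62.8 CPM in neutrophils and 32.4 and 36.6 CPM in erythroid cells. Its log2 ratio to neutrophils, 0.96 to 1.46 in monocytes and lymphocytes, was 0.20 to 0.87 relative to the median of all genes. Reads of Ptges3 may be split with its processed pseudogene Ptges3-ps, so that its level is uncertain.

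Counted against neutrophils, a gene was called where the log2 ratio was past 1 in both libraries in the same direction with intervals that left out 0. In classical monocytes, 0 of 7 members with enough UMIs were higher and 2 lower, where 43.2% and 11.8% of all genes were. For nonclassical monocytes, 2 of 8 were higher and 5 lower (42.6% and 12.2% of all genes). Among NK cells the counts were 2 higher and 4 lower of 7 (38.2% and 15.3%), among T cells 2 and 5 of 7 (38.4% and 14.5%) and among B cells 1 and 5 of 7 (33.7% and 17.9%). Basophils had 0 higher and 1 lower of 7 (13.8% and 8.63%). They were 72 WT and 43 APP/PS1 cells, with 11 and 1 UMIs of Lta4h, 1 and 0 of Ptgs1 and 5 and 0 of Tbxas1, which limits calls there. Erythroid cells had 0 higher and 4 lower of 7 (3.05% and 38.1%). Each count of higher members was Lta4h or Ptges3, and under TMM none was left. The share of all genes called under TMM was not computed. Those lower in NK, T and B cells always included Alox5, Alox5ap, Ptgs2 and Tbxas1.

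Transcripts of neutrophil markers were found in every other type. The neutrophil marker S100a9 stood in NK cells at 10.6% of its neutrophil level in WT and 11.3% in APP/PS1, in T cells at 6.98% and 8.88%, in B cells at 7.05% and 4.11% and in erythroid cells at 19.0% and 27.5%. Ptgs2 stood at 8.10% and 11.7% in NK cells, 7.10% and 8.42% in T cells, 7.50% and 6.07% in B cells and 21.8% and 33.0% in erythroid cells. Alox5 was likewise at 9.91% and 12.0% in NK cells and 18.7% and 27.9% in erythroid cells. In classical monocytes, S100a9 was at 6.35% and 5.50% of its neutrophil level and Ptgs2 at 7.81% and 8.01%. Set against 7 neutrophil markers in the same cells, Ptgs2 in lymphocytes and monocytes and Alox5 in NK cells, erythroid cells and classical monocytes lay at or below the highest marker in both libraries. Alox5 in T cells (12.2% and 8.10%) and B cells (11.5% and 6.18%) lay above it in WT alone, and Alox5ap in NK cells likewise (11.9% and 13.8%). Above all 7 markers in both libraries were Alox5ap in monocytes (43.6% to 84.9%), Alox5 in nonclassical monocytes (27.9% and 32.4%) and Alox5, Alox5ap and Ptgs2 in basophils (51.8% to 137%). By smaller margins, so were Alox5ap in T cells (16.6% and 11.8%, where the highest marker was at 8.93% and 11.3%), in B cells (11.5% and 7.04%, against 9.17% and 6.59%) and in erythroid cells (27.3% and 34.1%, against 20.4% and 31.3%), and Ptgs2 in erythroid cells. How much of any of these levels is neutrophil RNA was not tested.

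**Figure D2:**
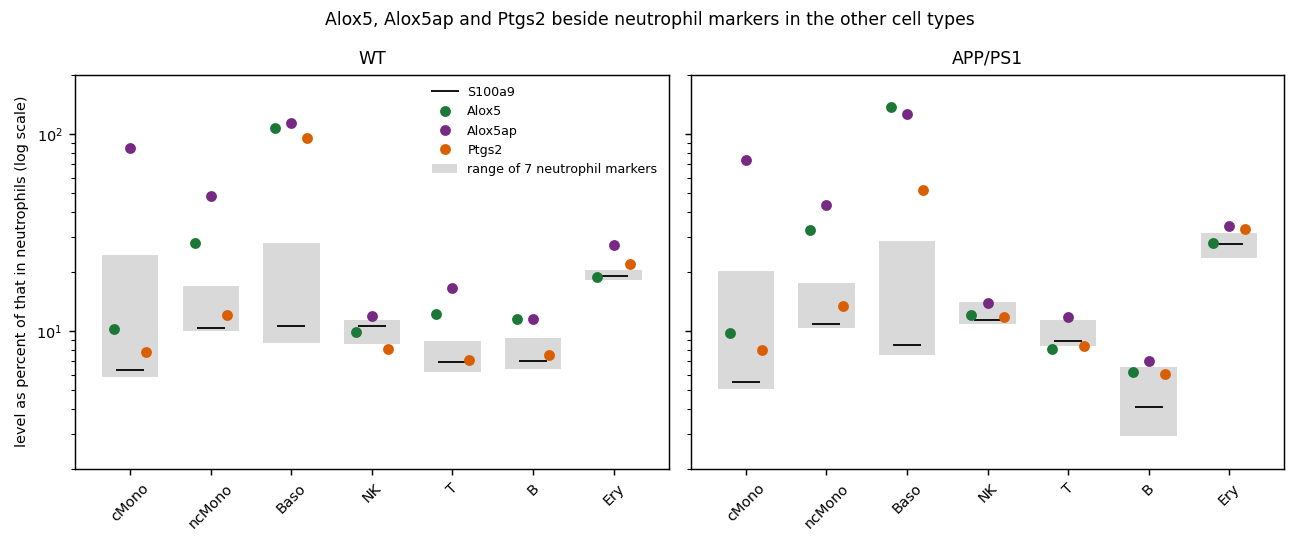
Level of Alox5, Alox5ap and Ptgs2 (points) in each other cell type as percent of the level in neutrophils of the same library (log axis), with S100a9 as a black line and the range of 7 neutrophil markers as a grey bar; WT left, APP/PS1 right, cell types abbreviated as in the plot of levels. Basophils lie above the bar for all 3 genes, monocytes for Alox5ap, and the points of lymphocytes and erythroid cells lie nearer to it, with Alox5ap above it in T, B and erythroid cells of both libraries.

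Between the genotypes, no member was called over all neutrophils. A call needed a log2 ratio past 0.5 in either direction, an interval without 0 and at least 50 UMIs over both libraries. Of all 9496 genes tested in neutrophils, 8.42% were called, and of the 8 members 0. The median log2 ratio of APP/PS1 over WT was 0.08 over the members and 0.05 over all genes. Alox5 differed by 0.04 (−0.04 to 0.11), Alox5ap by 0.08 (0.06 to 0.10) and Ptgs2 by 0.08 (0.06 to 0.11). Tbxas1 differed by 0.10 (−0.07 to 0.27) and Ptges3 by 0.05 (−0.05 to 0.15).

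Lta4h and Ptgs1 moved most among the well-counted members, in opposite directions. Lta4h was lower in APP/PS1 neutrophils by a log2 ratio of −0.30 (−0.49 to −0.11), 15.8 against 19.4 CPM. The same sign was seen in each of the 4 larger neutrophil clusters described below (−0.35 to −0.46). The interval included 0 in clusters 1 (−0.96 to 0.05) and 2 (−0.88 to 0.04), but not in clusters 0 (−0.68 to −0.01) and 3 (−0.78 to −0.07). Clusters and cell types come from the same 2 libraries, so a shared sign does not repeat the comparison. The ratio was −0.37 (−0.60 to −0.13) without the cluster of immature markers, an alternative chosen after the data were seen. It was also below 0 in classical monocytes (−0.47), nonclassical monocytes (−0.24), NK cells (−0.10), T cells (−0.23) and B cells (−0.19). In erythroid cells it was above 0 (0.36), from 15 WT and 10 APP/PS1 UMIs, under the minimum of 50. None of these passed the call, but in classical monocytes it did so at a resolution of 0.6 (−0.55) and with the highest doublet scores removed (−0.51), in T cells among those without Pf4 and Ppbp UMIs (−0.70), and, with neutrophils clustered without alignment, in clusters 2 (−0.67) and 3 (−0.66). Ptgs1 was higher in APP/PS1 neutrophils by 0.41 (0.22 to 0.59), 23.1 against 17.4 CPM. The 8 platelet markers were all detected in each type, and their summed level in neutrophils was 869 CPM (WT) and 1052 CPM (APP/PS1). The part of platelet RNA in the Ptgs1 ratio was not tested. Within the clusters, the Ptgs1 ratio was 0.12 (−0.23 to 0.47) in cluster 0 and 0.34 (0.05 to 0.64) in cluster 1. In cluster 2 it was 0.57, past 0.5 with a lower bound of 0.15, from 74 WT and 138 APP/PS1 UMIs. With neutrophils clustered on all features or without alignment, that last ratio was 0.45 and 0.35, with intervals that included 0. In neutrophils with 0 UMIs of Pf4 and Ppbp, the Ptgs1 ratio was 0.22. Ltc4s differed by 0.54, with an interval of −0.17 to 1.28 at its low counts.

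**Figure D3:**
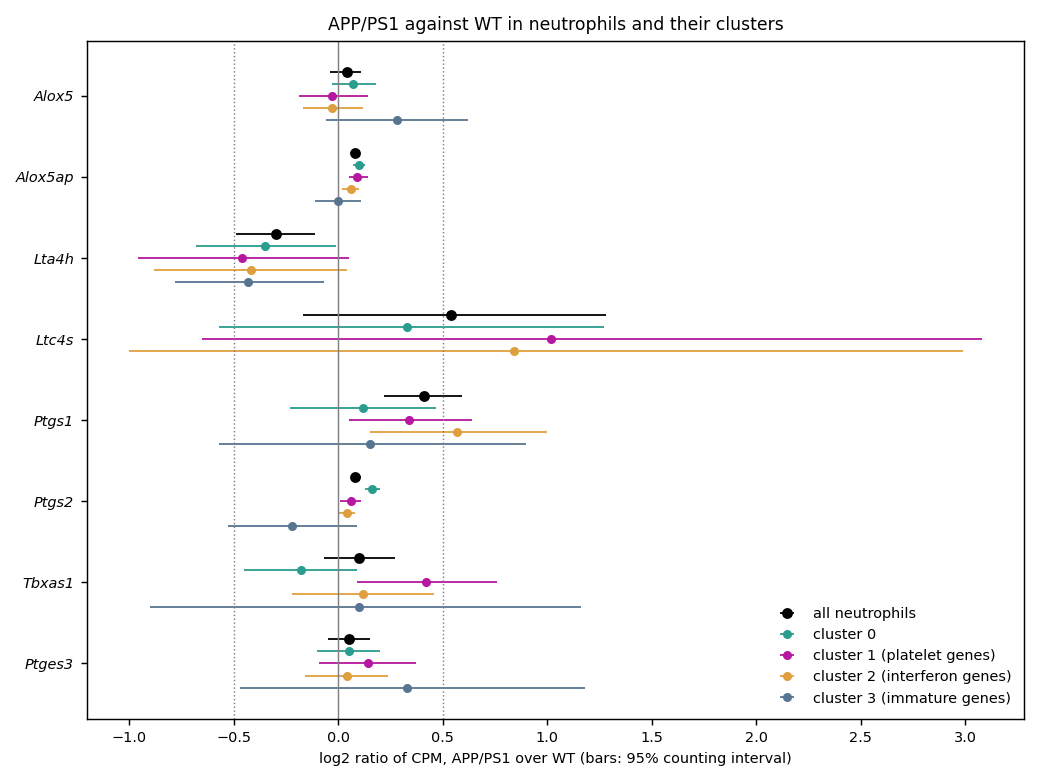
Log2 ratio of CPM in APP/PS1 over WT for each gene in all neutrophils (black) and in the 4 larger neutrophil clusters (colours); bars are 95% counting intervals and dotted lines mark 0.5 in each direction. Lta4h lies below 0 in all neutrophils and in all 4 clusters, Ptgs1 above 0, and Alox5, Alox5ap and Ptgs2 near 0; Ltc4s had 0 UMIs in cluster 3 and has no point there.

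In the other types, 4 ratios of members were called. None was called among 7 tested in classical monocytes (5.78% of all genes were), 8 in nonclassical monocytes (4.98%) or 5 in T cells (8.65%). In NK cells, 1 of 6 was called (5.01% of all genes): Ptgs2, with 91.7 CPM (WT) and 140 CPM (APP/PS1), a log2 ratio of 0.61 (0.34 to 0.89). The summed CPM of the 8 neutrophil markers went from 19257 to 17803 in these cells, and from 181357 to 153840 in neutrophils themselves. As a share of the level in neutrophils, S100a9 went from 10.6% to 11.3% and the median of 7 neutrophil markers from 10.6% to 13.2%. Ptgs2 went from 8.10% to 11.7% on that scale. In erythroid cells, 1 of 4 was called (18.1%): Ptgs2 again, 246 and 396 CPM, a ratio of 0.68 (0.49 to 0.88), where the summed neutrophil markers went from 34551 to 42095 CPM. The median of all genes tested there was 0.22, and the call was lost under TMM (0.45) and in 3 other alternatives. Among B cells, 1 of 4 was called (9.29%): Alox5ap, 173 and 113 CPM, a ratio of −0.62 (−0.89 to −0.36), where the summed neutrophil markers went from 12871 to 6524 CPM. The part of neutrophil RNA in these 3 was not tested. In basophils, 1 of 3 was called (10.5%): Ptgs2, 1082 and 621 CPM, a ratio of −0.80 (−1.09 to −0.52). This rests on 72 WT and 43 APP/PS1 cells and on 400 and 135 UMIs, and S100a9 stood at 10.6% and 8.43% there. Among basophils with 0 UMIs of Pf4 and Ppbp, Ptgs2 was 1030 CPM in 33 WT cells and 974 CPM in 18 APP/PS1 cells, and the call was lost.

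The neutrophils were clustered again with the libraries aligned and without the members and the other eicosanoid genes, which gave 6 clusters. Cluster 0 (9177 cells) was led by Stfa2 and Stfa1, cluster 1 (3929 cells) by platelet genes such as Itga2b and Clec1b, cluster 2 (3592 cells) by interferon-induced genes such as Ifit3 and Rsad2, and cluster 3 (359 cells) by the granule genes Camp, Ngp and Ltf, which are made in immature neutrophils. Cluster 4 (104 cells) was led by mitochondrial genes and cluster 5 (33 cells) by platelet genes. In cluster 5, neutrophil markers were lower than in the other clusters by a mean log2 ratio of −2.22. Platelet markers were higher there by 4.73, at medians of 1371 UMIs (WT) and 1220 UMIs (APP/PS1). By these markers its cells are more like platelets than neutrophils. At a resolution of 0.6, a cluster of 16 WT and 16 APP/PS1 cells was named platelet. In the clustering of all cells, 1 neutrophil cluster was led by platelet and interferon genes with no neutrophil marker among its top genes, so the genotype ratios are also given by these cluster numbers.

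The sharpest difference within neutrophils was between cluster 3 and the rest. Lta4h reached 154 CPM (WT) and 115 CPM (APP/PS1) in cluster 3, against 14.2 and 11.0 CPM outside it, a log2 ratio of 3.44 (3.13 to 3.75) and 3.38 (3.09 to 3.66). These cells were 1.95% of WT and 2.20% of APP/PS1 neutrophils but held 29.6% and 33.3% of neutrophil Lta4h UMIs. Ptgs2 went the other way, with 183 and 157 CPM against 1168 and 1248 CPM, a log2 ratio of −2.68 (−2.92 to −2.44) and −2.99 (−3.19 to −2.80). Ptges3 was lower as well, at 24.7 and 31.1 CPM against 62.2 and 64.4 CPM, with ratios of −1.33 and −1.05. Of 7 members tested, 1 was called higher and 2 lower in cluster 3, where 4.43% and 8.83% of all genes were called; the median log2 ratio of all genes there was −0.28 in WT and −0.30 in APP/PS1. Alox5 was 133 and 161 CPM in cluster 3 against 120 and 122 CPM, and Alox5ap 1288 and 1287 CPM against 1522 and 1614 CPM. Ltc4s had 0 UMIs there, which allows up to 4.55 and 2.73 CPM.

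Alox5, Alox5ap and Lta4h varied little over the 3 large clusters. Alox5 ranged from 115 to 129 CPM and Alox5ap from 1470 to 1667 CPM over clusters 0, 1 and 2 of both libraries, and Lta4h from 10.7 to 14.7 CPM. Ltc4s, from 4 to 28 UMIs a cluster, ranged from 0.672 to 2.12 CPM. Ptgs2 was highest in the interferon cluster 2, 1303 and 1340 CPM against 1067 and 1150 CPM outside it, a log2 ratio of 0.29 (0.25 to 0.33) and 0.22 (0.19 to 0.25). At a finer resolution, a cluster with the lowest level of Retnlg and led by Csf1, Egr2 and Il1b (1061 WT and 1975 APP/PS1 cells) held 1488 and 1434 CPM of Ptgs2 against 1090 and 1155 CPM in the other neutrophils. Ptges3 was also higher in it, 97.7 and 79.9 against 55.5 and 58.4 CPM. Ltc4s was 3.76 CPM from 9 UMIs in WT and 4.33 CPM from 22 UMIs in APP/PS1, against 0.870 and 1.15 CPM, a log2 ratio of 2.11 (0.75 to 3.38) and 1.92 (1.02 to 2.80). The median log2 ratio of all genes in it was 0.16 and 0.15. That clustering also left out the 8 genes. The other neutrophils here were the clusters named neutrophil, without an unnamed cluster of 324 WT and 766 APP/PS1 cells led by platelet genes. None of the 7 members with enough UMIs was called, and Ltc4s had too few. The share of all genes called in this comparison is not given, so that count is not read further.

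**Figure D4:**
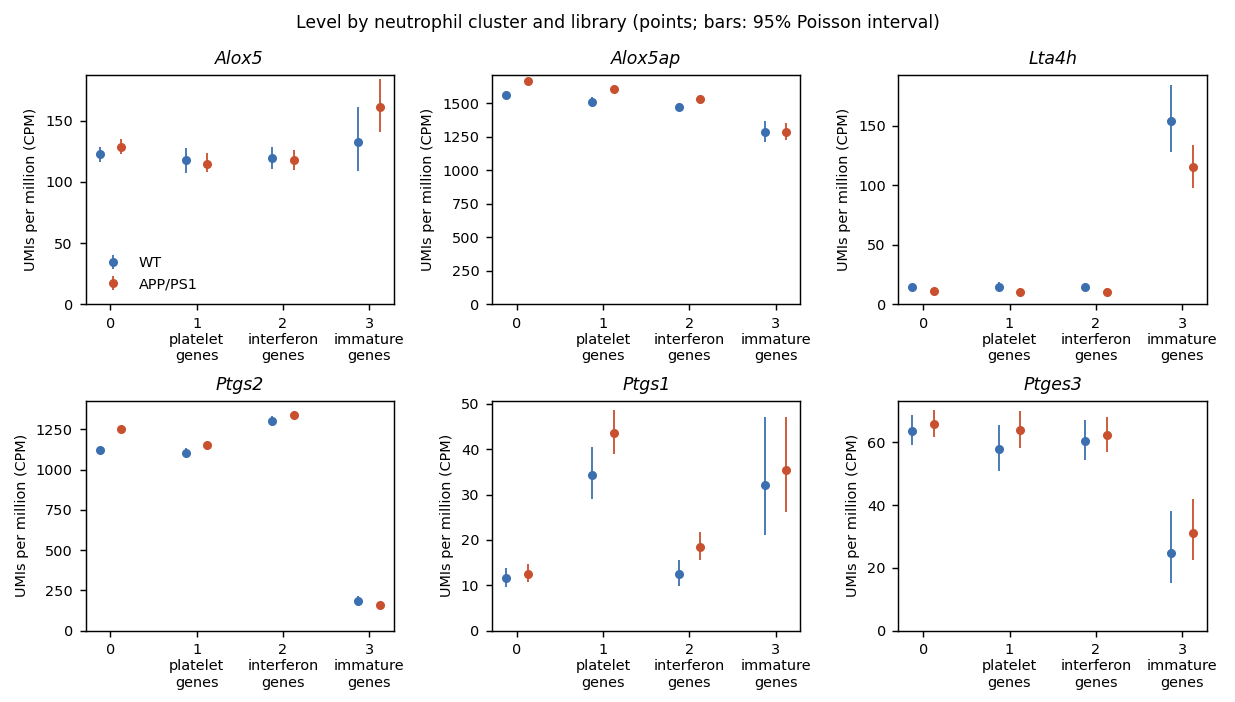
Level (CPM, axes from 0) of 6 of the genes in neutrophil clusters 0 to 3 of the WT (blue) and APP/PS1 (red) library; bars are 95% Poisson intervals. Cluster 3, with immature granule genes, has the highest Lta4h and the lowest Ptgs2 and Ptges3, and cluster 1, with platelet genes, and cluster 3 have more Ptgs1 than clusters 0 and 2.

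Ptgs1 was high in cluster 1, in the platelet-like cells of cluster 5 and also in cluster 3. In cluster 1 it stood at 34.4 CPM (WT) and 43.6 CPM (APP/PS1) against 13.4 and 16.4 CPM outside it, a log2 ratio of 1.36 (1.06 to 1.67) and 1.41 (1.19 to 1.63), and in the 33 cells of cluster 5 it reached 430 and 318 CPM. Cluster 3, where platelet markers were lower than in the other neutrophils by a mean log2 ratio of −1.42, held 32.1 and 35.5 CPM, a log2 ratio of 0.93 and 0.66 with lower bounds of 0.29 and 0.20, and its intervals overlapped those of cluster 1 in both libraries. Tbxas1 in cluster 1 was 25.4 and 34.0 CPM, a ratio of 0.26 (−0.06 to 0.57) and 0.74 in the respective libraries. Of all neutrophils, 54.3% in WT and 56.0% in APP/PS1 had a UMI of Pf4 or Ppbp. Ptgs1 was 21.3 and 28.9 CPM in these and 12.5 and 14.5 CPM in the rest, while Alox5 was 120 and 121 CPM against 123 and 129 CPM. Lta4h went the other way, with a log2 ratio of −0.60 (−0.89 to −0.32) in WT and −0.50 (−0.76 to −0.23) in APP/PS1. For Tbxas1 it was 0.16 (−0.11 to 0.43) and 0.40 (0.18 to 0.64). Deeper cells are more likely to have such a UMI, and no correction for this was made. Monocytes showed the same split of Ptgs1, with 14.1 and 16.8 against 5.66 and 6.61 CPM in classical and 6.61 and 12.4 against 2.24 and 1.17 CPM in nonclassical monocytes. The split there was not limited to Ptgs1. Ptgs2 was higher in monocytes with such a UMI, by a log2 ratio of 0.57 and 0.71 in classical and 0.74 and 1.30 in nonclassical. In neutrophils its ratio was 0.03 and −0.05. With no percentile limits, 660 WT and 634 APP/PS1 cells carried platelet markers, at medians of 700 and 656 UMIs, of which 112 and 96 lay inside the limits. There Ptgs1 was 90.8 and 106 CPM, 5.56-fold and 4.72-fold the level of neutrophils, and Tbxas1 was 70.2 and 63.8 CPM, 3.28-fold and 2.74-fold. Alox12, the lipoxygenase of platelets, was 584 and 660 CPM. Ptgs2 was lower than in neutrophils by a log2 ratio of −2.24 and −2.32 and Alox5 was 39.4 and 54.7 CPM. S100a9 stood at 32827 and 30949 CPM in these cells and 93288 and 80323 CPM in neutrophils. Of 7 members tested, 2 were called higher and 2 lower than in neutrophils, where 18.2% and 7.34% of all genes were called; the median log2 ratio of all genes there was 0.28 in WT and 0.17 in APP/PS1.

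The genes whose levels over the 8 named cell types were most like those of each member were found by Pearson r of log2(CPM + 1) among 11327 genes, taking the lower r of the 2 libraries. The points share libraries, depth and background RNA, so r is a description. Ptgs2 was closest to Acod1 (r = 0.976 in WT and 0.988 in APP/PS1), which makes itaconate in activated myeloid cells, then to Adam8 and Srgn. Alox5 was closest to Plk3 (0.978 and 0.988), then to Srgn and Lilr4b. Alox5ap followed Dgkg, Igsf6 and Emilin2, and Lta4h followed Zfp810, Ccdc25 and B4galt7. Ptges3 was closest to Rrnad1, Smarca5 and Wbp4. For the low genes r was lower: Ptgs1 was closest to Cd52 (0.891 and 0.888), Tbxas1 to Gm46224 (0.877 and 0.960) and Ltc4s to Gm36043 (0.911 and 0.932).

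The other genes of the pathway were taken from a list of 56 phospholipases, oxygenases, terminal enzymes, inactivating enzymes, transporters and receptors. Of these, 9 had 0 UMIs in neutrophils of both libraries and 29 had enough UMIs there, with a median log2 ratio of 0.02. Of the 29, 3 were called higher and 2 lower in APP/PS1, where 8.42% of all genes were called in either direction. Those called higher were Ptger2, the prostaglandin E2 receptor EP2 (7.62 and 12.7 CPM, log2 ratio 0.73), Ptger1 (3.12 and 4.78 CPM) and the phospholipase Pla2g12a (7.02 and 10.6 CPM). Those called lower were Ggt1 (2.66 and 1.36 CPM), a gamma-glutamyl transferase, and Hpgd (log2 ratio −0.55), which inactivates prostaglandins. All 5 were low transcripts. In classical monocytes, 1 of 31 was called (5.78% of all genes were), Alox12 (31.7 and 44.8 CPM). Alox12 was also high in the cells with platelet markers above, and the part of platelet RNA in classical monocytes was not tested. In nonclassical monocytes, 1 of 28 was called higher and 1 lower (4.98% of all genes in either direction). These were Ptger4, the receptor EP4 (63.7 and 108 CPM, log2 ratio 0.76, 0.62 to 0.89), and Cysltr1, a receptor of cysteinyl leukotrienes (6.67 and 3.12 CPM). In basophils, higher and lower counts were 0 and 0 of 4 (10.5% of all genes were called), and in NK cells 2 and 0 of 13 (5.01%). They were 0 and 1 of 17 in T cells (8.65%), 1 and 2 of 9 in B cells (9.29%) and 2 and 1 of 10 in erythroid cells (18.1%).

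Against neutrophils, 17 of 31 of these genes were called higher and 4 lower in classical monocytes, 15 and 5 of 30 in nonclassical monocytes, 4 and 3 of 26 in basophils, 6 and 10 of 26 in NK cells, 9 and 6 of 28 in T cells, 6 and 9 of 26 in B cells and 3 and 11 of 24 in erythroid cells, to be read beside the shares of all genes given above. Neutrophils had the highest level of Pla2g7, which hydrolyses platelet-activating factor (746 and 843 CPM), and of Ggt5, which converts leukotriene C4 (82.5 and 73.2 CPM), and they also held Cyp4f18, which inactivates leukotriene B4 (460 and 464 CPM), Mgst1 (463 and 433 CPM) and Cotl1, a partner of 5-lipoxygenase (584 and 618 CPM). The leukotriene B4 receptor Ltb4r1 was 66.6 and 68.6 CPM in neutrophils and 93.3 and 85.2 CPM in classical monocytes. Basophils were set apart by Alox15 (184 and 175 CPM, at most 1.04 CPM in any other type), Alox8 (21.6 and 36.8 CPM), the receptor Ptger3 (67.6 and 50.6 CPM) and Abcc1, an exporter of leukotriene C4 (70.3 and 64.4 CPM). Hpgd reached 263 and 288 CPM in nonclassical and 111 and 141 CPM in classical monocytes, and Dpep2, which converts leukotriene D4, 34.3 and 40.5 CPM in nonclassical monocytes. Cysltr1 was highest in classical monocytes (31.4 and 25.2 CPM) and Cysltr2 in NK cells (13.8 and 14.2 CPM), close to the 12.8 and 12.2 CPM of T cells. The thromboxane receptor Tbxa2r was highest in T cells (9.03 and 13.1 CPM), and the phospholipase Plaat3 in NK cells (153 and 153 CPM).

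**Figure D5:**
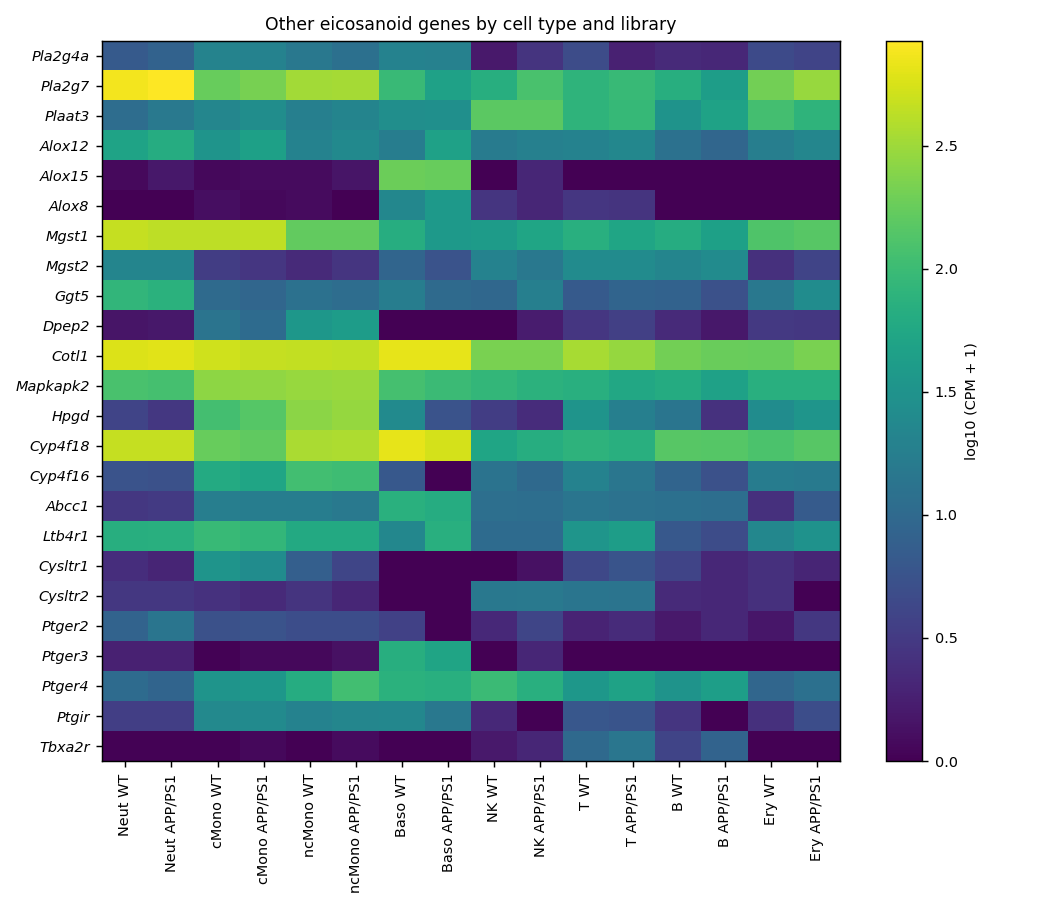
Level of 24 other eicosanoid genes as log10(CPM + 1) (colour) in each cell type and library (columns, WT and APP/PS1 side by side, types abbreviated as in the plot of levels). Alox15, Alox8 and Ptger3 are bright only in the basophil columns, Pla2g7 is brightest in the neutrophil columns and Hpgd in the nonclassical monocyte columns.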

How the data were processed

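Single-cell RNA-seq of 2 libraries, WT and APP/PS1, was available as UMI counts per gene and barcode. The authors deposited these counts, made with Cell Ranger 5.0.0 on mm10 per the labels, without normalization. Kept cells lay between the 5th and 95th percentile of their library in genes and in UMIs and had at most 10% mitochondrial UMIs. Clusters were made with Seurat 5.3.0 (R 4.3.3) on 2000 variable features less the members and other eicosanoid genes, with 15 principal components at a resolution of 0.2, and at 0.25 after CCA alignment for neutrophils. A cluster was named after the marker list that fitted best, with at least 3 markers over a log2 ratio of 1 and, outside neutrophils, at least 2 among its top 10 genes; this rule was written after the clusters were seen. UMIs were summed per library and type and divided by all UMIs of that type (CPM). Intervals at the 95% level were exact Poisson for CPM, exact conditional for ratios and Clopper-Pearson for shares (scipy 1.17.1), checked on simulated counts.

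Doublets were scored with Scrublet (scanpy 1.11.5). Its threshold called no cell in APP/PS1 (0.725 against 0.210 in WT), so doublets were kept and the highest 8% of scores removed as an alternative. Other alternatives were other percentile limits, 30 principal components, a resolution of 0.6, cells without Pf4 and Ppbp, cells thinned to 1000 UMIs, TMM sizes (edgeR 4.0.16), sizes without abundant gene classes, the mean over cells, other UMI minimums, and neutrophils clustered with all features or without alignment. All members were named, and of the other eicosanoid genes those called in neutrophils or monocytes or highest of their role in a type. The members and lists were chosen with earlier results of these data known. Coordinates are those of GENCODE M21.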

Additional observations from a re-analysis of the deposited data

Results flagged for a closer look

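Ptgs2 was called between the libraries in opposite directions in different cell types. Its log2 ratio of APP/PS1 over WT was −0.80 in basophils, 0.61 in NK cells and 0.68 in erythroid cells, while it was 0.08 in neutrophils. The difference between these ratios was not tested. The call in basophils rests on 72 and 43 cells, and in 9 of 10 alternatives it was kept, with ratios from −0.92 to −0.08; it was lost in cells with 0 UMIs of Pf4 and Ppbp. The NK cell call was kept in 7 of 10 alternatives (0.44 to 0.77) and the erythroid call in 6 of 10 (0.14 to 1.07), being lost under TMM, with sizes without abundant gene classes and with the other percentile limits. The summed neutrophil markers went from 19257 to 17803 CPM in NK cells and from 34551 to 42095 CPM in erythroid cells. As a share of the neutrophil level, the median of 7 neutrophil markers in NK cells went from 10.6% to 13.2%, and Ptgs2 from 8.10% to 11.7%. Of the erythroid cells, 47.3% were among the highest 8% of doublet scores. The part of neutrophil RNA and of doublets was not tested.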

How the results depend on the processing

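No paired analysis was possible because each genotype was 1 library and no test was made; for the same reason no library could be left out. The ratio between the libraries in neutrophils stayed within its counting interval in 72 of 80 combinations of gene and alternative, and no member was called there under any of the 10 alternatives. The ratio of Lta4h ranged from −0.35 to −0.17 and that of Ptgs1 from 0.22 to 0.46. Alox5ap and Ptgs2 were each at 0.04 under TMM and with sizes without abundant gene classes. In neutrophils with 0 UMIs of Pf4 and Ppbp, Ptgs2 was at 0.13 and Ptgs1 at 0.22. In thinned cells, Ltc4s was at 1.31 and Ptges3 at −0.08. In the other types, 312 of 370 ratios between the libraries stayed within their interval. Of the called ones, 1 changed sign: Alox5ap in B cells was 0.02 with no percentile limits, and its call was kept in 7 of 10 alternatives. Member calls there, 4 as reported, numbered 2 with percentile limits over both libraries together, 7 by the mean over cells and 9 with the highest doublet scores removed, where Ptgs2 was at 1.64 in T cells and −0.64 in nonclassical monocytes (0.23 as reported). Against neutrophils, 685 of 997 ratios stayed within their interval and, of the called ones, Ptgs1 in WT basophils changed sign (0.01 with no percentile limits). Ptgs2 in nonclassical monocytes, −3.06 in WT and −2.91 in APP/PS1 as reported, was lower still in both with no percentile limits and with 30 principal components. The 7 calls of members higher than in neutrophils became 0 under TMM, which shifts the ratios of all genes of a type alike. In the immature cluster of WT, the Ptgs2 ratio was −3.55 without alignment and −2.43 with all features. Other eicosanoid genes called in neutrophils, 5 as reported, numbered 2 without Pf4 and Ppbp cells and 3 in thinned cells. All genes called there, 800 at a minimum of 50 UMIs, numbered 457 at 200. Except for the UMI minimums, the share of all genes called was not computed under the alternatives. A change in these counts of calls can thus not be told from a change over all genes. The cause of these shifts was not tested. Leaving out the immature cluster or the shared barcodes, both chosen after the data were seen, kept every neutrophil ratio within its interval. Depth limits Ltc4s in every type and all members but Alox5, Alox5ap and Ptgs2 in basophils. It also limits other members in lymphocytes and erythroid cells. Of the 8 members, 6 had enough UMIs for a call between the libraries in NK cells, 5 in T cells, 4 in B cells and 4 in erythroid cells.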

Other observations

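The cells left unnamed, 184 in WT and 265 in APP/PS1, carried plasma cell and epithelial genes and belong to no comparison above. Alox5ap stood in them at 760 and 992 CPM, in that order, Ptgs2 at 415 and 708 CPM, Ptges3 at 79.3 and 126 CPM and Alox5 at 46.1 and 69.5 CPM. Tbxas1 was 27.7 and 26.6 CPM and Lta4h 16.6 and 13.3 CPM. Ptgs1 was 3.69 CPM from 2 UMIs in WT and 31.0 CPM from 21 UMIs in APP/PS1, and Ltc4s had 0 UMIs in both, which allows up to 6.80 and 5.45 CPM. How much of these levels is RNA of other cells was not tested.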
